A study of Homo sapiens with 12 samples.

Results

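The messenger RNA of 10 enzymes that build serine, one-carbon units and proline was measured in 2 human lung cancer cell lines exposed to 1 of 2 EGFR inhibitors. The members were taken by gene name from the deposited gene table, and all 10 were found among its 60591 genes: PHGDH, PSAT1, PSPH, SHMT1, SHMT2, MTHFD2, MTHFD1L, ALDH1L2, PYCR1 and ALDH18A1. All 10 were also among the 19108 genes with enough reads to test. PC9 and H1650 are non-small cell lung cancer lines that carry a mutated EGFR, the growth factor receptor that both drugs inhibit, while the labels list the genotype of every sample as wild-type.

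In each line, T0 cells in 0.1% DMSO were collected at 0 h, when drug was added to the other wells, and the treated cells were collected after 36 h in 10 µM erlotinib, a reversible inhibitor, or 0.1 µM osimertinib, a covalent one. That gave 6 groups of 2 libraries, 12 in all. No vehicle library at 36 h was analysed here, so an effect of the drug and an effect of time in culture cannot be told apart against T0. The 2 drugs were given at different doses, so a difference between the treated arms is one of drug and dose together. The T0 libraries of a line serve as the reference for both drugs.

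Library totals were 17961765 to 26346187 reads assigned to genes. The 7 epithelial markers examined (EPCAM, CDH1, KRT7, KRT8, KRT18, KRT19 and EGFR) lay between 185 and 4280 normalized CPM in every library. CPM relate a gene's reads to the total of its library, here corrected by TMM factors. The markers of blood cells (PTPRC, CD3E, CD68) stayed at or below 0.543 CPM, and those of endothelium (PECAM1, VWF, CDH5) at or below 3.48 CPM. Of the fibroblast markers COL1A1 read 9.96 to 44.8, COL3A1 0 to 19.9 and PDGFRB 0 to 1.02 CPM. Their sum was 18.3 to 21.1 CPM at T0, 20.8 to 24.7 under erlotinib and 37.6 to 45.8 under osimertinib in PC9, and 24.2 to 24.9, 16.9 to 18.4 and 32.4 to 34.7 in H1650. The part of these markers in the results was not tested. The measurements are of bulk RNA, in which fewer cells of one kind and less RNA per cell cannot be told apart.

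Serine is made from the glycolytic intermediate 3-phosphoglycerate by PHGDH, PSAT1 and PSPH acting in turn. The serine hydroxymethyltransferases, SHMT1 in the cytosol and SHMT2 in mitochondria, cleave serine to glycine and pass its carbon to tetrahydrofolate. In mitochondria MTHFD2 oxidizes the resulting methylene group, MTHFD1L releases it as formate for purine and thymidylate synthesis, and ALDH1L2 burns it to carbon dioxide while making NADPH. Proline is made from glutamate by ALDH18A1, which forms pyrroline-5-carboxylate, and by PYCR1, the mitochondrial reductase of the last step. Many of these genes are known targets of ATF4, the transcription factor of the amino acid and integrated stress responses.

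The sequences before 3 of the genes are shown because these genes gave the contrasting patterns below. PSAT1 had the largest difference between the drug arms, MTHFD1L did not rise in any drug arm, and ALDH18A1 was the member that was higher under osimertinib than under erlotinib in both lines. They are the 250 bases before a RefSeq transcription start in build GRCh38.p14, read along the gene's strand, at chr9:78296875-78297124 (plus strand) for PSAT1, chr6:150866236-150866485 (plus strand) for MTHFD1L and chr10:95656712-95656961 (minus strand) for ALDH18A1. Capitals mark TGATGNAA, the core of the element bound by C/EBP and ATF factors such as ATF4, and CACGTG, the E-box core, searched on both strands.
PSAT1: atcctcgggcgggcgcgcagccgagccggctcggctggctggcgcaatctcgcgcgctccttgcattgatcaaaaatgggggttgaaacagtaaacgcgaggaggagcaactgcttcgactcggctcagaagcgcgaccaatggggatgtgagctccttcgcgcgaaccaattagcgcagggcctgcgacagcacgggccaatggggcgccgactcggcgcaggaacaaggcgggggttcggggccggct
MTHFD1L: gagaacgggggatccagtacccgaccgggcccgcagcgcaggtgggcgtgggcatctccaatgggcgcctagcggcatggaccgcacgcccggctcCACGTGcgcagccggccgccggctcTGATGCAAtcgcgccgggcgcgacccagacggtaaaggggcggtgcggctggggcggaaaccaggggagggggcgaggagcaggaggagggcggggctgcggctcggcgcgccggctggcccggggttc
ALDH18A1: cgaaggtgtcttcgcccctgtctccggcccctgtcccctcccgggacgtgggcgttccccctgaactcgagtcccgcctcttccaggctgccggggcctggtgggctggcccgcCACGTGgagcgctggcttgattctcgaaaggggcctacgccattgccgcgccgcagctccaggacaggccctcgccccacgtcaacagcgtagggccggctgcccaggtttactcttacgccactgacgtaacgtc

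Windows of 300 bases, 250 before the start and 50 after it, were at hand for 6 members, in 9 windows: 1 each for PHGDH, PSAT1, SHMT1, MTHFD2 and ALDH18A1, and 4 for MTHFD1L. TGATGNAA was found at 1 place, as TGATGCAA in the window of MTHFD1L printed above, 129 to 122 bases before the start. It was shared by 3 overlapping MTHFD1L windows. CACGTG was found in those 3 windows, 154 to 149 bases before the same start, and in ALDH18A1, 136 to 131 bases before its start. The 3 MTHFD1L windows have different starts. Relative to 1 of these, TGATGCAA lay after the start, at bases 25 to 32, and CACGTG spanned it, from base -1 to base 5. The matches did not overlap each other. Among all 35116 windows, 3.62% held TGATGNAA and 7.26% held CACGTG. The windows of PHGDH, PSAT1, SHMT1 and MTHFD2 held neither run of letters. Only these exact runs in these windows were searched, so the search cannot show that a gene lacks a site. PSPH, SHMT2, ALDH1L2 and PYCR1 had no window.

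Most of the enzymes rose with erlotinib in both lines, whereas with osimertinib most fell in PC9 and some rose and some fell in H1650. A gene was called when the adjusted p of edgeR's quasi-likelihood test (Benjamini-Hochberg over all tested genes) was under 0.05. In PC9, 6 of the 10 members were called higher under erlotinib than at T0, where 32.7% of all tested genes were, and 3 were called lower, where 29.1% of all genes were. Their median log2 fold change was 0.87, against 0.074 over all genes. Under osimertinib none of the 10 was called higher in PC9 (background 32.7%) and 7 were called lower (background 28.7%). The median there was -0.93, against 0.064 over all genes.

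Fewer genes were called in H1650 than in PC9 over the whole table, as the background shares show. With erlotinib 8 members were called higher (background 18.0%) and 2 lower (background 18.5%), with a median of 0.81. Under osimertinib 5 were called higher (background 17.8%) and 3 lower (background 17.9%), with a median of 0.18. The plot of values by library shows all 10 genes.

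**Figure D1:**
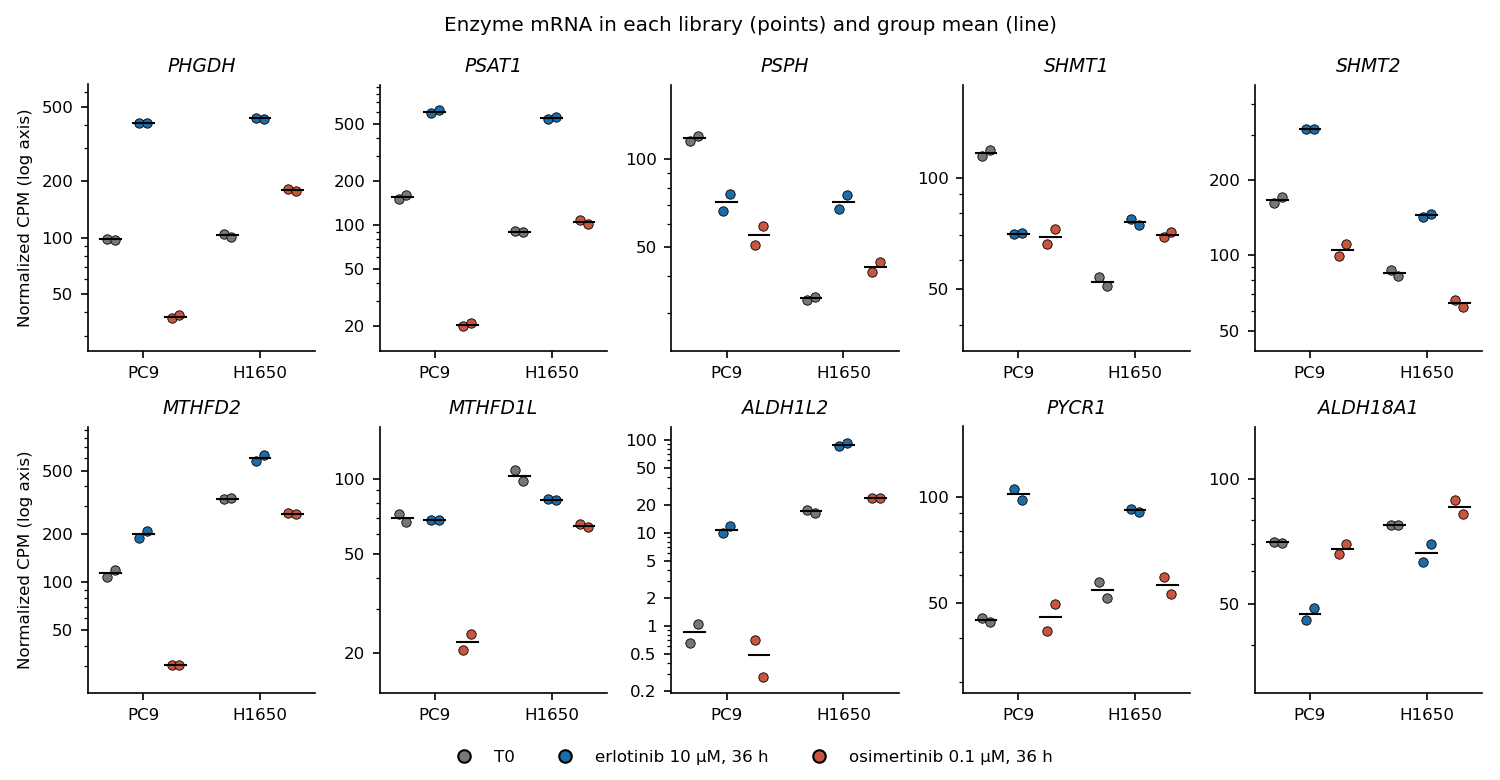
Normalized CPM (log axis, scaled separately for each gene) of the 10 enzymes in each of the 12 libraries, where points are libraries, short lines are group means, with PC9 on the left and H1650 on the right of each panel. For PHGDH and PSAT1 the erlotinib libraries are the highest of their line, and in PC9 the osimertinib libraries are the lowest.

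The first and second enzymes of serine synthesis rose with erlotinib in both lines, and with osimertinib both fell in PC9 but not in H1650. PHGDH, which commits carbon to the pathway, lies on chromosome 1 (119648411 to 119744226 in GRCh38, plus strand). In PC9 its normalized CPM were 98.6 and 97.4 at T0, 410.0 and 406 under erlotinib and 37.1 and 38.5 under osimertinib. In H1650 they were 105 and 101 at T0, 437 and 431 under erlotinib and 181 and 177 under osimertinib. The groups did not overlap within either line. With erlotinib PHGDH rose 4.16-fold in PC9, a log2 fold change of 2.06 ± 0.070 (SE, adjusted p = 6.4e-20), and 4.22-fold in H1650, a log2 fold change of 2.08 ± 0.069 (SE, adjusted p = 1.7e-18). With osimertinib it fell in PC9, with a log2 fold change of -1.38 ± 0.074 (SE, adjusted p = 1.9e-15), and rose in H1650, with 0.80 ± 0.068 (SE, adjusted p = 3.3e-10).

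PSAT1, the aminotransferase that takes nitrogen from glutamate, had the widest swing among the well-read members (chromosome 9, 78297143 to 78330093, plus strand). In PC9 its normalized CPM were 150.3 and 161 at T0, 589 and 619.8 under erlotinib and 20.2 and 21.0 under osimertinib. The H1650 libraries gave 90.4 and 89.3 at T0, 541 and 553 under erlotinib and 108 and 101 under osimertinib. Every PC9 osimertinib library was thus below every other library of the study. With erlotinib PSAT1 rose 3.89-fold in PC9, a log2 fold change of 1.96 ± 0.071 (SE, adjusted p = 2.9e-19), and 6.08-fold in H1650, a log2 fold change of 2.61 ± 0.073 (SE, adjusted p = 9.3e-20). With osimertinib it was 7.57-fold lower in PC9, a log2 fold change of -2.92 ± 0.082 (SE, adjusted p = 1.1e-21). In H1650 the change with osimertinib was small, a log2 fold change of 0.22 ± 0.072 (SE, adjusted p = 0.017). Each library was also left out in turn, and the library that then stands alone in its group is assumed to vary like those of the other groups. The call was lost without H1650 T0 replicate 1 (0.23, adjusted p = 0.069), without H1650 T0 replicate 2 (0.21, adjusted p = 0.099) and without H1650 osimertinib replicate 1 (0.18, adjusted p = 0.17).

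PSPH, the phosphatase that releases serine, did not follow its neighbours in PC9 (chromosome 7, 56011051 to 56051604, minus strand). Its normalized CPM in PC9 were 116 and 119.6 at T0, 66.4 and 76.2 under erlotinib and 50.9 and 59.1 under osimertinib. In H1650 they were 33.2 and 33.8 at T0, 67.5 and 75.7 under erlotinib and 41.3 and 44.5 under osimertinib. T0 was the highest group in PC9 and the lowest in H1650. PSPH fell with both drugs in PC9, with log2 fold changes of -0.72 ± 0.087 (SE, adjusted p = 3.7e-08) for erlotinib and -1.10 ± 0.089 (SE, adjusted p = 1.4e-11) for osimertinib. In H1650 it rose with erlotinib, with 1.10 ± 0.092 (SE, adjusted p = 2.4e-10), and with osimertinib, with 0.36 ± 0.094 (SE, adjusted p = 0.0034). The last call was lost without H1650 osimertinib replicate 2 (0.30, adjusted p = 0.055).

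**Figure D2:**
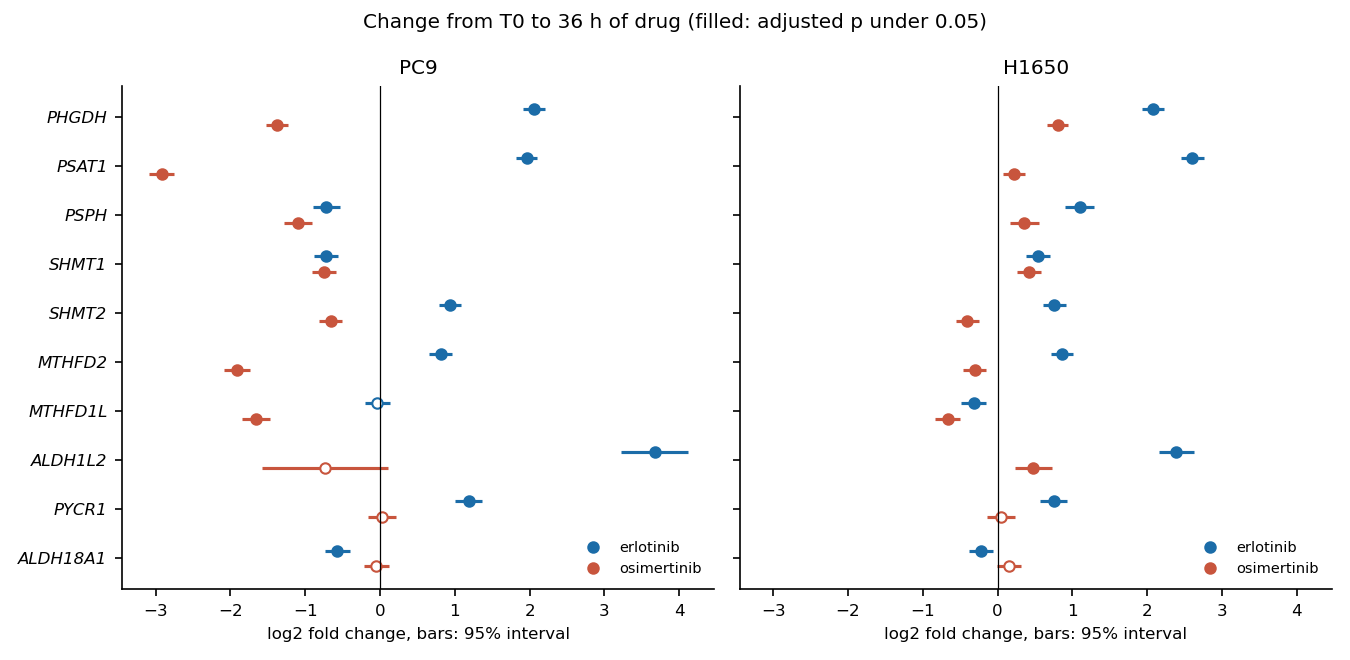
Log2 fold change from T0 to 36 h of drug for the 10 enzymes in PC9 (left) and H1650 (right), where points are edgeR estimates from 2 libraries a group, bars are 95% intervals, and open points are changes that were not called. In PC9 PHGDH, PSAT1, SHMT2 and MTHFD2 lie to the right of 0 for erlotinib and to the left for osimertinib.

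The cytosolic and mitochondrial serine hydroxymethyltransferases changed in opposite directions with erlotinib in PC9 and with osimertinib in H1650. SHMT2 (chromosome 12, 57229327 to 57234935, plus strand) read 162 and 169.7 at T0, 317 and 318 under erlotinib and 99.1 and 111 under osimertinib normalized CPM in PC9. In H1650 it read 87.7 and 82.6 at T0, 142 and 146 under erlotinib and 66.4 and 62.2 under osimertinib. In both lines erlotinib gave the highest and osimertinib the lowest group. SHMT2 rose with erlotinib by a log2 fold change of 0.94 ± 0.073 (SE, adjusted p = 6.8e-12) in PC9 and 0.76 ± 0.075 (SE, adjusted p = 5.4e-09) in H1650. With osimertinib its log2 fold changes were -0.66 ± 0.075 (SE, adjusted p = 1.3e-08) and -0.40 ± 0.077 (SE, adjusted p = 1.3e-04), a fall in both.

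SHMT1 (chromosome 17, 18327860 to 18363563, minus strand) read 115 and 119 at T0, 70.6 and 70.7 under erlotinib and 66.0 and 72.5 under osimertinib normalized CPM in PC9. In H1650 it read 53.8 and 50.9 at T0, 77.3 and 74.4 under erlotinib and 69.1 and 71.1 under osimertinib. The libraries of the 2 drugs overlapped in PC9, and both drugs lay on one side of T0 in each line. In PC9 SHMT1 fell with both drugs, with log2 fold changes of -0.72 ± 0.076 (SE, adjusted p = 2.7e-09) and -0.75 ± 0.077 (SE, adjusted p = 1.4e-09), and in H1650 it rose, by 0.54 ± 0.078 (SE, adjusted p = 3.3e-06) and 0.42 ± 0.078 (SE, adjusted p = 9.0e-05), for erlotinib and osimertinib in turn.

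The ratio of mitochondrial to cytosolic isoenzyme per library shows this divergence. Normalized CPM per kb of the gene length in the counts table gave SHMT2-to-SHMT1 ratios in PC9 of 2.24 and 2.26 at T0, 7.11 and 7.14 under erlotinib and 2.38 and 2.43 under osimertinib. In H1650 they were 2.58 and 2.57, then 2.92 and 3.11, then 1.53 and 1.39. With the longest annotated transcript as the length, the H1650 osimertinib ratios were 0.776 and 0.706, below 1, so which isoenzyme is higher there depends on the length used. The change of a ratio between groups does not depend on it.

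The same was done for MTHFD2 against MTHFD1, the cytosolic enzyme that carries out the matching folate steps. Their per-kb ratio in PC9 was 0.942 and 1.04 at T0, 5.80 and 5.68 under erlotinib and 0.847 and 0.768 under osimertinib. In H1650 it was 5.24 and 5.01, 12.4 and 12.6 and 5.77 and 5.45 in the same order of groups. MTHFD1 itself fell with both drugs in PC9, to 88.3 ± 7.8 CPM (SD, n = 2) under erlotinib from 291 ± 0.81 at T0. It also fell with both drugs in H1650. The log2 fold changes there were -0.43 ± 0.077 (SE, adjusted p = 5.5e-05) with erlotinib and -0.44 ± 0.077 (SE, adjusted p = 4.3e-05) with osimertinib. With 2 libraries a group no test was made on the ratios.

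**Figure D3:**
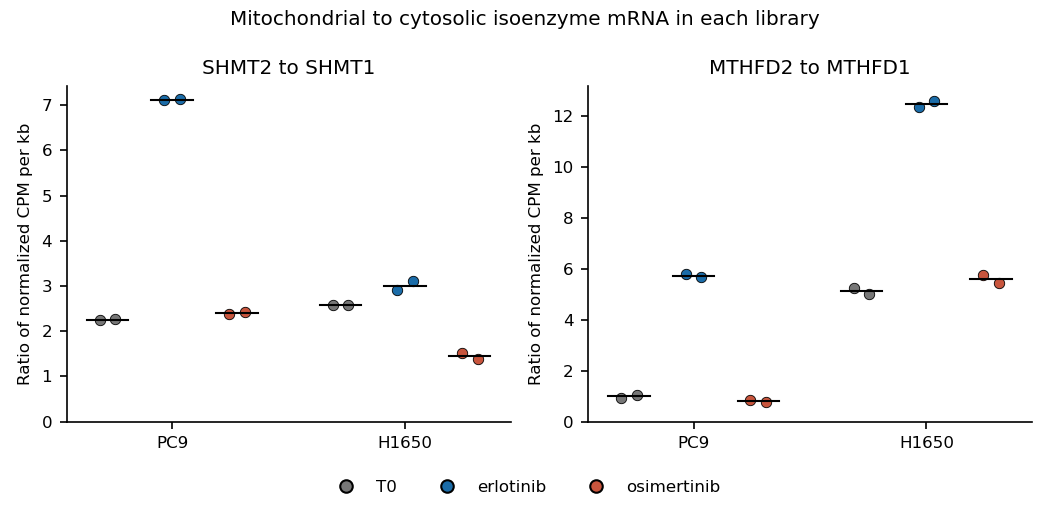
Ratio of normalized CPM per kb of the mitochondrial to the cytosolic enzyme in each library, SHMT2 to SHMT1 (left) and MTHFD2 to MTHFD1 (right), where points are libraries, lines are group means. The PC9 erlotinib libraries stand at 7.11 and 7.14 for SHMT2 to SHMT1, and every other library is at or below 3.11.

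The mitochondrial folate enzymes beyond SHMT2 did not move as one. MTHFD2 (chromosome 2, 74198562 to 74217565, plus strand) rose with erlotinib and fell with osimertinib in both lines. In PC9 its normalized CPM were 108 and 119.5 at T0, 189.6 and 210.3 under erlotinib and 30.3 and 30.2 under osimertinib. H1650 had 330.2 and 336 at T0, 578 and 629 under erlotinib and 273 and 266 under osimertinib. No groups overlapped within a line. MTHFD2 rose with erlotinib by a log2 fold change of 0.81 ± 0.075 (SE, adjusted p = 2.2e-10) in PC9 and 0.86 ± 0.073 (SE, adjusted p = 2.8e-10) in H1650. With osimertinib it fell 3.77-fold in PC9, a log2 fold change of -1.91 ± 0.083 (SE, adjusted p = 1.5e-17), and less in H1650, with -0.31 ± 0.073 (SE, adjusted p = 0.0013).

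MTHFD1L (chromosome 6, 150865549 to 151101887, plus strand) fell or was not called in each drug arm. In PC9 its normalized CPM were 72.5 and 67.3 at T0, 68.3 and 68.2 under erlotinib and 20.7 and 23.8 under osimertinib. In H1650 they were 108 and 98.3 at T0, 82.8 and 82.7 under erlotinib and 66.0 and 64.2 under osimertinib. The T0 and erlotinib libraries overlapped in PC9 and did not in H1650. The PC9 change with erlotinib was -0.03 ± 0.081 (SE, adjusted p = 0.74) on the log2 scale, with a 95% interval of -0.20 to 0.13, and its sign changed with upper quartile factors as the scaling. With osimertinib MTHFD1L fell in both lines, with log2 fold changes of -1.66 ± 0.090 (SE, adjusted p = 2.3e-15) in PC9 and -0.67 ± 0.081 (SE, adjusted p = 1.7e-07) in H1650. The H1650 change with erlotinib was -0.32 ± 0.080 (SE, adjusted p = 0.0021), a call lost without H1650 T0 replicate 1 (-0.25, adjusted p = 0.058).

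ALDH1L2 (chromosome 12, 105019784 to 105084577, minus strand) was nearly unread in PC9 outside erlotinib. Its raw reads there were 13 and 21 at T0, 220 and 302 under erlotinib and 15 and 5 under osimertinib, or 0.655 and 1.04 at T0, 9.85 and 11.8 under erlotinib and 0.694 and 0.280 under osimertinib as normalized CPM. In H1650 it read 17.4 and 16.4 at T0, 84.9 and 92.5 under erlotinib and 23.8 and 23.3 under osimertinib normalized CPM. The T0 and osimertinib libraries of PC9 overlapped, and the erlotinib libraries of each line were its highest. ALDH1L2 rose with erlotinib by log2 fold changes of 3.67 ± 0.21 (SE, adjusted p = 1.4e-14) in PC9 and 2.39 ± 0.12 (SE, adjusted p = 2.8e-15) in H1650. With osimertinib it rose in H1650, with 0.48 ± 0.12 (SE, adjusted p = 0.0022). The PC9 osimertinib change was -0.74 ± 0.41 (SE, adjusted p = 0.12), with a 95% interval of -1.58 to 0.10. Without PC9 osimertinib replicate 1, which leaves 1 library of 5 reads and no spread of its own, it was -1.58, adjusted p = 0.026.

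Of the proline enzymes, PYCR1 rose with erlotinib and ALDH18A1 did not. PYCR1 (chromosome 17, 81932384 to 81942412, minus strand) read 45.5 and 44.2 at T0, 106 and 98.1 under erlotinib and 41.7 and 49.8 under osimertinib normalized CPM in PC9. In H1650 it read 57.7 and 51.7 at T0, 92.7 and 90.9 under erlotinib and 59.6 and 53.2 under osimertinib. The T0 and osimertinib libraries overlapped in both lines, and the erlotinib libraries lay above them. PYCR1 rose with erlotinib by log2 fold changes of 1.18 ± 0.090 (SE, adjusted p = 3.7e-12) in PC9 and 0.75 ± 0.088 (SE, adjusted p = 1.2e-07) in H1650. The osimertinib changes were not called, with 95% intervals of -0.17 to 0.22 in PC9 and -0.14 to 0.23 in H1650 on the log2 scale.

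ALDH18A1 (chromosome 10, 95605929 to 95656706, minus strand) had the narrowest range of the 10, 1.81-fold between the lowest and the highest group. In PC9 its normalized CPM were 70.7 and 70.1 at T0, 45.8 and 49.1 under erlotinib and 66.2 and 69.9 under osimertinib. H1650 libraries had 77.4 and 77.8 at T0, 63.2 and 70.0 under erlotinib and 89.3 and 82.6 under osimertinib. Erlotinib gave the lowest group in each line. The log2 fold change with erlotinib was -0.57 ± 0.081 (SE, adjusted p = 6.5e-07) in PC9 and -0.22 ± 0.080 (SE, adjusted p = 0.031) in H1650. The H1650 call was lost without H1650 T0 replicate 1 (-0.23, adjusted p = 0.10), H1650 T0 replicate 2 (-0.22, adjusted p = 0.12) or H1650 erlotinib replicate 1 (-0.15, adjusted p = 0.31). With osimertinib the change was not called in either line, with 95% intervals of -0.22 to 0.12 in PC9 and -0.014 to 0.31 in H1650.

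The treated arms were then compared with each other, which leaves T0 out. Most of the enzymes were lower in 0.1 µM osimertinib than in 10 µM erlotinib in both lines, at the same 36 h. In PC9, 8 members were lower (background 6.41%) and 1 was higher (background 10.1%), with a median log2 difference of -1.61 against 0.0036 over all genes. In H1650, 8 members were lower (background 3.73%) and 1 was higher (background 5.02%), with a median of -0.95 against 0 over all genes. ALDH18A1 was the higher member and SHMT1 the uncalled one in both lines.

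PSAT1 was 29.4-fold lower under osimertinib in PC9, a log2 difference of -4.88 ± 0.085 (SE, adjusted p = 3.0e-25), and in H1650 it was 5.22-fold lower, -2.38 ± 0.072 (SE, adjusted p = 7.4e-19). Both adjusted p were the smallest of any gene in their comparison. ALDH1L2 was 21.2-fold lower in PC9, -4.41 ± 0.24 (SE, adjusted p = 7.5e-14), on few reads, and 3.76-fold lower in H1650, -1.91 ± 0.11 (SE, adjusted p = 1.6e-12). Without PC9 osimertinib replicate 1 the PC9 difference was -5.25, adjusted p = 1.9e-11. PHGDH was 10.8-fold lower in PC9 and 2.42-fold lower in H1650, log2 differences of -3.43 ± 0.076 (SE, adjusted p = 7.8e-23) and -1.28 ± 0.067 (SE, adjusted p = 1.9e-13). MTHFD2 followed, 6.61-fold lower in PC9 and 2.24-fold lower in H1650.

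The smaller differences were those of SHMT2, MTHFD1L, PYCR1 and PSPH. On the log2 scale they were -1.60 (adjusted p = 3.0e-15), -1.62 (adjusted p = 9.3e-14), -1.16 (adjusted p = 1.4e-10) and -0.38 (adjusted p = 0.0033) in PC9, in that order. In H1650 they were -1.16 (adjusted p = 1.5e-11), -0.35 (adjusted p = 0.0055), -0.70 (adjusted p = 2.2e-06) and -0.74 (adjusted p = 1.6e-06). The PSPH call in PC9 was lost without PC9 erlotinib replicate 2 (-0.27, adjusted p = 0.085) or PC9 osimertinib replicate 1 (-0.27, adjusted p = 0.12). The MTHFD1L call in H1650 was lost without H1650 osimertinib replicate 2 (-0.32, adjusted p = 0.070).

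ALDH18A1 ran the other way, with log2 differences of 0.52 ± 0.081 (SE, adjusted p = 3.0e-05) in PC9 and 0.37 ± 0.080 (SE, adjusted p = 0.0027) in H1650. The H1650 call was lost without H1650 erlotinib replicate 1 (0.29, adjusted p = 0.081) or H1650 osimertinib replicate 1 (0.31, adjusted p = 0.082). For SHMT1 the 95% interval of the log2 difference was -0.19 to 0.13 in PC9 and -0.27 to 0.045 in H1650.

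**Figure D4:**
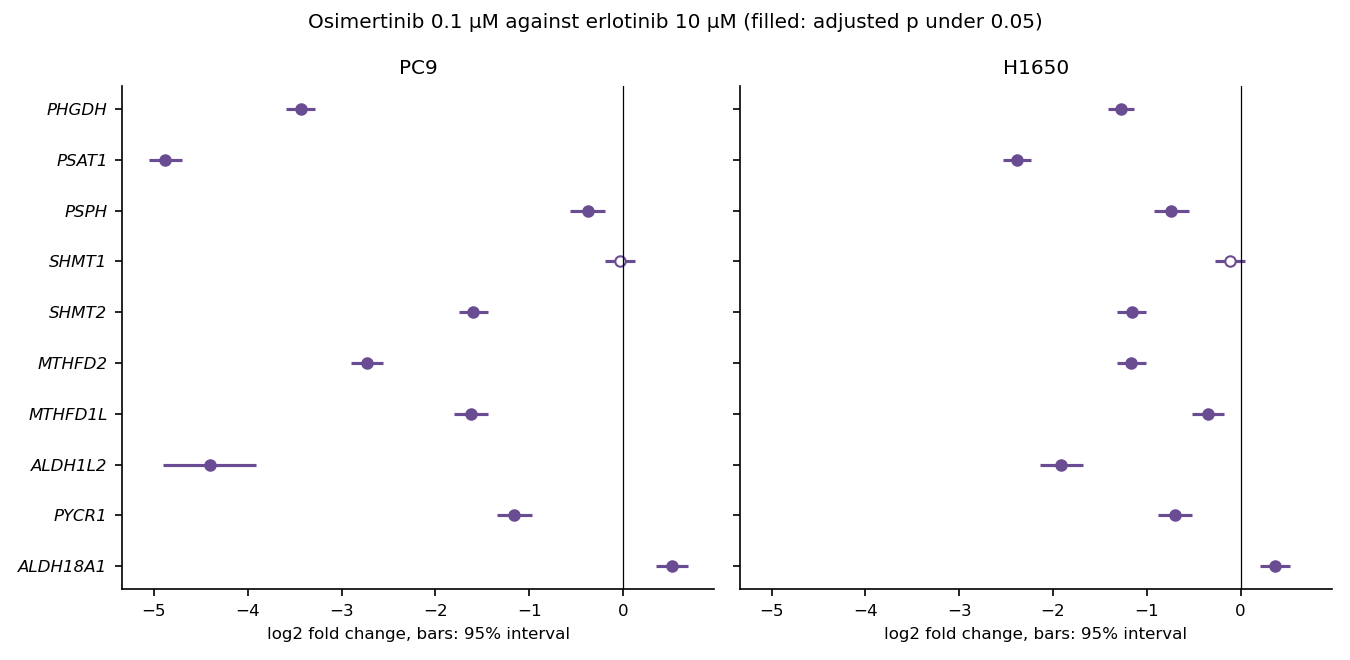
Log2 difference between 0.1 µM osimertinib and 10 µM erlotinib at 36 h for the 10 enzymes in PC9 (left) and H1650 (right), where points are edgeR estimates from 2 libraries a group, bars are 95% intervals, open points were not called. PSAT1 lies at -4.88 in PC9 and -2.38 in H1650, and ALDH18A1 is the only member to the right of 0 in both panels.

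Before drug, at T0, 4 members were higher in H1650 than in PC9 (background 35.8%) and 4 were lower (background 33.8%), shares near those of all genes. ALDH1L2 was 19.8-fold higher in H1650, a log2 difference of 4.31 ± 0.20 (SE, adjusted p = 7.7e-17), and MTHFD2 was 2.92-fold higher, 1.55 ± 0.075 (SE, adjusted p = 1.7e-16). MTHFD1L was higher by 0.56 ± 0.080 (SE, adjusted p = 5.4e-07) and PYCR1 by 0.29 ± 0.091 (SE, adjusted p = 0.0071) on the log2 scale. The PYCR1 call was lost without PC9 T0 replicate 2 (0.26, adjusted p = 0.055) or H1650 T0 replicate 1 (0.19, adjusted p = 0.14).

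The 4 members called lower in H1650 at T0, a share near that of all genes, were PSPH, SHMT1, SHMT2 and PSAT1. PSPH was 3.51-fold lower in H1650, -1.81 ± 0.092 (SE, adjusted p = 3.9e-16), SHMT1 2.23-fold lower, -1.16 ± 0.077 (SE, adjusted p = 1.9e-13), SHMT2 1.95-fold lower, -0.96 ± 0.075 (SE, adjusted p = 5.8e-12), and PSAT1 1.73-fold lower, -0.79 ± 0.071 (SE, adjusted p = 1.1e-10), all as log2 differences. PHGDH was not called, with a 95% interval of -0.074 to 0.21, nor was ALDH18A1, with -0.023 to 0.30.

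Levels between genes were compared as normalized CPM per kb of gene length. At T0 the PC9 order began with PSAT1 at 70.5 ± 3.3 (SD, n = 2), PSPH at 42.6 ± 1.1 and SHMT2 at 36.1 ± 1.2. MTHFD2, ALDH18A1, SHMT1, PYCR1, MTHFD1L and PHGDH followed, down to 10.6 ± 0.086, and ALDH1L2 was last at 0.0891 ± 0.028. SHMT1 and PYCR1 were the neighbours whose libraries overlapped.

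In H1650 the T0 order began with MTHFD2 at 69.1 ± 0.86 and PSAT1 at 40.7 ± 0.36 (SD, n = 2). ALDH18A1, MTHFD1L, PYCR1 and SHMT2 came next with overlapping libraries, between 17.9 and 21.6 per kb. PSPH, PHGDH, SHMT1 and, at 1.78 ± 0.078, ALDH1L2 closed the order. Under erlotinib PSAT1 led in both lines, at 274 ± 9.9 in PC9 and 248 ± 3.8 in H1650. Under osimertinib SHMT2 led in PC9, at 22.9 ± 1.8, and MTHFD2 in H1650, at 55.8 ± 1.0. PSAT1 was then in place 6 in PC9. The order depends on the length used. PHGDH has 9217 bases in the table against 3180 in its longest transcript, and with the latter it moved from place 9 to place 5 at T0 in PC9 and from 8 to 3 in H1650.

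Whether the lines responded differently was tested by subtracting the PC9 change from that of H1650. For erlotinib 7 members were called, where 40.8% of all genes were: 4 with a more positive change in H1650 and 3 with a more negative one. PSPH differed by 1.82 ± 0.13 (SE, adjusted p = 2.1e-12), SHMT1 by 1.26 ± 0.11 (SE, adjusted p = 1.7e-10) and PSAT1 by 0.65 ± 0.098 (SE, adjusted p = 4.0e-06) on the log2 scale. ALDH1L2 differed by -1.28 ± 0.28 (SE, adjusted p = 4.0e-04), its rise being steeper in PC9. PYCR1 and MTHFD1L were more negative in H1650, and ALDH18A1 more positive, by -0.44, -0.29 and 0.35. Each of these calls was lost when single libraries were left out. PYCR1 gave -0.34, adjusted p = 0.057 without H1650 T0 replicate 1, and ALDH18A1 gave 0.30, adjusted p = 0.066 without PC9 erlotinib replicate 1 and 0.29, adjusted p = 0.085 without H1650 erlotinib replicate 2. The MTHFD1L call (adjusted p = 0.046) was lost on leaving out any of 9 libraries. These were both T0 and both erlotinib libraries of PC9, with adjusted p of 0.052 to 0.20, and all of H1650 but T0 replicate 2, with adjusted p of 0.078 to 0.27. For PHGDH, SHMT2 and MTHFD2 the 95% intervals were -0.17 to 0.22, -0.39 to 0.035 and -0.17 to 0.26. SHMT2 was called with upper quartile factors (-0.26, adjusted p = 0.031).

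For osimertinib 7 members were called, where 41.9% of all genes were, and all 7 were more positive in H1650. The differences were 3.14 ± 0.11 (SE, adjusted p = 1.2e-18) for PSAT1, 2.18 ± 0.10 (SE, adjusted p = 3.6e-16) for PHGDH and 1.61 ± 0.11 (SE, adjusted p = 1.3e-12) for MTHFD2 on the log2 scale. PSPH, SHMT1 and MTHFD1L differed by 1.46 (adjusted p = 2.8e-10), 1.17 (adjusted p = 7.2e-10) and 0.99 (adjusted p = 9.8e-08). ALDH1L2 differed by 1.22 (adjusted p = 0.022), a call lost without PC9 T0 replicate 2 (0.85, adjusted p = 0.25) or PC9 osimertinib replicate 2 (0.77, adjusted p = 0.19), and larger without PC9 osimertinib replicate 1 (2.06, adjusted p = 0.0066). SHMT2 was not called at 0.25 (adjusted p = 0.060), and was without PC9 osimertinib replicate 2 (0.34, adjusted p = 0.022) or H1650 osimertinib replicate 2 (0.31, adjusted p = 0.049) and with no filter on low counts (0.33, adjusted p = 0.017). PYCR1 and ALDH18A1 were not called, with 95% intervals of -0.25 to 0.28 and -0.034 to 0.43.

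The gap between osimertinib and erlotinib itself was wider in PC9 for 7 members, where 5.21% of all genes depended on the line in either direction. The differences between the lines were 2.49 ± 0.11 (SE, adjusted p = 4.1e-15) for PSAT1, 2.16 ± 0.098 (SE, adjusted p = 1.3e-14) for PHGDH, 1.56 ± 0.11 (SE, adjusted p = 1.9e-10) for MTHFD2 and 1.28 ± 0.12 (SE, adjusted p = 5.5e-08) for MTHFD1L on the log2 scale. ALDH1L2 differed by 2.50 ± 0.30 (SE, adjusted p = 3.4e-06), and by 3.34, adjusted p = 3.0e-05 without PC9 osimertinib replicate 1. SHMT2 differed by 0.43 (adjusted p = 0.013), a call lost without PC9 osimertinib replicate 1 (0.35, adjusted p = 0.100), H1650 erlotinib replicate 1 (0.41, adjusted p = 0.052) or H1650 osimertinib replicate 1 (0.38, adjusted p = 0.091).

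PYCR1 differed by 0.45 (adjusted p = 0.030), lost without PC9 erlotinib replicate 1 (0.40, adjusted p = 0.099), PC9 osimertinib replicate 1 (0.33, adjusted p = 0.23), H1650 erlotinib replicate 1 (0.46, adjusted p = 0.063), H1650 erlotinib replicate 2 (0.44, adjusted p = 0.079) or H1650 osimertinib replicate 1 (0.37, adjusted p = 0.19). PSPH was not called at -0.36 (adjusted p = 0.11), and was called without PC9 erlotinib replicate 2 (-0.46, adjusted p = 0.045). For SHMT1 and ALDH18A1 the 95% intervals were -0.31 to 0.14 and -0.39 to 0.081.

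Other genes of the same pathways were read beside the 10 enzymes. Their counts stand against the shares of all genes called, which were 32.7% higher and 29.1% lower with erlotinib and 32.7% and 28.7% with osimertinib in PC9, and 18.0% and 18.5% with erlotinib and 17.8% and 17.9% with osimertinib in H1650. Between the drugs 10.1% were higher and 6.41% lower under osimertinib in PC9, and 5.02% and 3.73% in H1650. The list of folate cycle and thymidylate genes, all 14 of which were tested, fell with both drugs in PC9: 10 were lower and 1 higher with erlotinib, and 11 lower and 1 higher with osimertinib. TYMS, thymidylate synthase, changed by -4.62 with erlotinib and -4.19 with osimertinib (log2, PC9). In H1650 5 were lower and 2 higher with erlotinib, and 6 lower and 1 higher with osimertinib. Between the drugs few differed: 1 lower and 2 higher under osimertinib in PC9, and none lower and 1 higher in H1650.

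Of 14 genes of serine and glycine use and transport, 13 were tested. With erlotinib 4 rose and 5 fell in PC9, where 4 of 13 is near the share of all genes that rose. In H1650 6 rose and 3 fell with erlotinib. With osimertinib 1 rose and 8 fell in PC9, and 2 rose and 3 fell in H1650. CTH had the highest log2 fold change of the list in PC9 with erlotinib, 2.76, and rose by 1.95 with osimertinib. Osimertinib against erlotinib gave 6 lower and 1 higher in PC9, and 4 lower and 1 higher in H1650. The carriers SLC1A4 and SLC1A5, which move serine and other neutral amino acids into the cell, differed in PC9 by -2.64 ± 0.15 (SE, adjusted p = 1.2e-13) and -2.09 ± 0.074 (SE, adjusted p = 4.8e-18) on the log2 scale. In H1650 SLC1A4 and CBS, which joins serine to homocysteine, differed most, by -1.76 ± 0.098 (SE, adjusted p = 6.3e-13) and -1.08 ± 0.13 (SE, adjusted p = 9.7e-07). SFXN1, the mitochondrial serine carrier, was the higher gene in both lines, by 0.30 in PC9 and 0.24 in H1650, and fell with both drugs in PC9, with log2 fold changes of -1.63 with erlotinib and -1.32 with osimertinib.

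Of 12 proline and glutamate genes, 11 were tested. With erlotinib 2 rose and 6 fell in PC9, and 2 rose and 4 fell in H1650, where 2 of 11 is near the share of all genes that rose. PYCR3, a cytosolic reductase of the same step, changed in PC9 with erlotinib by -1.46 ± 0.11 (SE, adjusted p = 1.3e-12) on the log2 scale, against the rise of PYCR1. ALDH4A1, which oxidizes the proline-derived semialdehyde to glutamate, rose by 1.12 with erlotinib and 1.40 with osimertinib in PC9. Osimertinib against erlotinib gave 1 lower and 5 higher in PC9, and none lower and 3 higher in H1650.

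The list of ATF4 and 19 of its known targets outside the members was mostly higher with erlotinib, and in the osimertinib arms it held genes called in both directions. With erlotinib 18 of 20 rose and 1 fell in PC9 (median log2 fold change 1.40), and 16 rose and 2 fell in H1650 (median 1.17). With osimertinib 7 rose (background 32.7%) and 8 fell (background 28.7%) in PC9, where 7 of 20 is near the share of all genes. In H1650 6 rose (background 17.8%) and 7 fell (background 17.9%) with osimertinib. Osimertinib against erlotinib gave 17 lower and 1 higher in PC9, and 15 lower and none higher in H1650. ATF4 mRNA itself was 296 ± 12, 771 ± 10.4 and 335 ± 14 normalized CPM (SD, n = 2) at T0, with erlotinib and with osimertinib in PC9. In H1650 it was 207 ± 0.71, 426 ± 5.3 and 286 ± 1.8. ATF4 mRNA rose with osimertinib in both lines. The log2 fold changes were 0.18 ± 0.067 (SE, adjusted p = 0.020) in PC9 and 0.46 ± 0.067 (SE, adjusted p = 3.0e-06) in H1650. The part of ATF4 in the changes of the enzymes was not tested.

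The list's extremes in the drug comparison were ASNS, asparagine synthetase, at -4.78 ± 0.27 (SE, adjusted p = 2.2e-13) in PC9 and -2.46 ± 0.23 (SE, adjusted p = 1.5e-08) in H1650, and CHAC1, which degrades glutathione, at -2.42 ± 0.15 (SE, adjusted p = 8.7e-12) in H1650. The ASNS values rest on few reads under osimertinib. Its means there were 0.579 ± 0.42 normalized CPM (SD, n = 2) in PC9 and 1.80 ± 0.088 in H1650. Under erlotinib they were 16.8 ± 2.1 and 9.91 ± 0.51. FGF21, also among the extremes in PC9, had a mean of 0.330 CPM under erlotinib and no reads in the other PC9 groups, so no fold is given for it. ATF5 was the gene that ran the other way in PC9, at 0.38 ± 0.094 (SE, adjusted p = 0.0052).

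**Figure D5:**
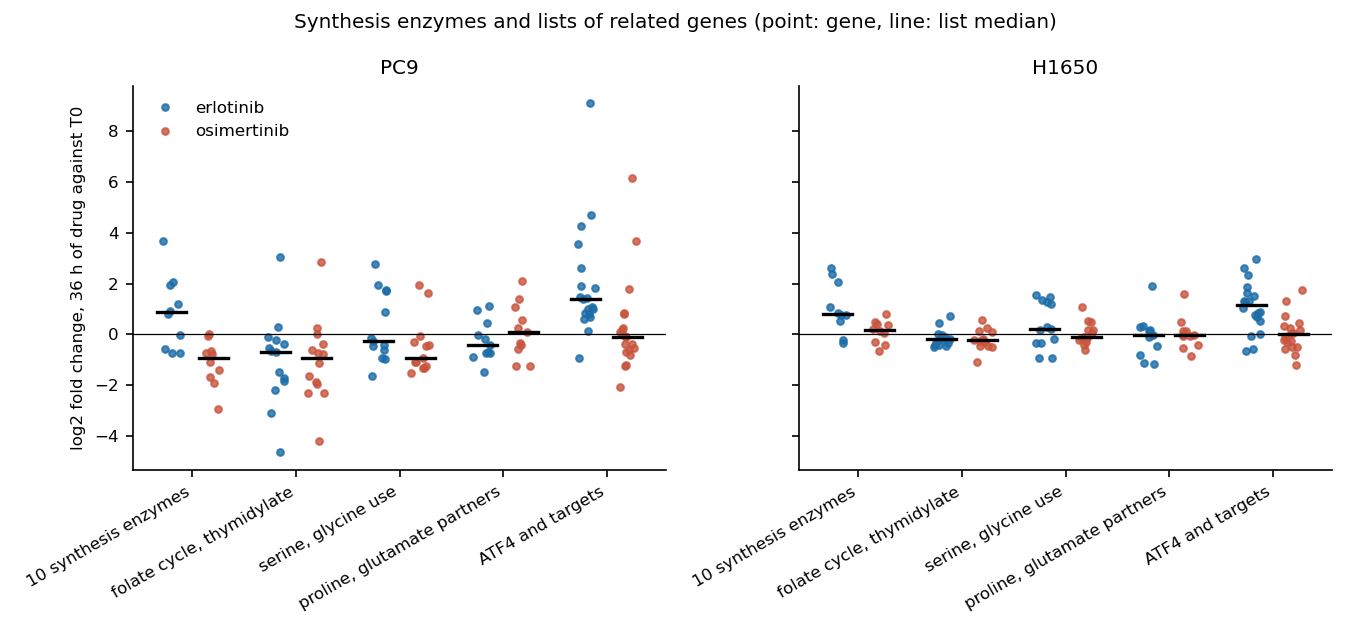
Log2 fold change from T0 for each gene of the 10 synthesis enzymes and of 4 lists of related genes, in PC9 (left) and H1650 (right), with erlotinib in blue and osimertinib in red, where points are genes, black lines are list medians, and FGF21 is counted in the median but not drawn. The enzyme median is 0.87 with erlotinib and -0.93 with osimertinib in PC9, and 0.81 and 0.18 in H1650.

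The genes whose levels most resembled the enzymes by Pearson correlation were 4 aminoacyl-tRNA synthetases and STC2, a stress-induced secreted glycoprotein. Over the 12 libraries, the Pearson correlation of log2 normalized CPM with the mean standardized level of the 10 members was highest for YARS1 (0.986), NARS1 (0.961), GARS1 (0.949), MARS1 (0.949) and STC2 (0.948), among 10284 genes with a mean of at least 10 CPM. Spearman's rank correlation put UHRF1BP1, MARS1, YARS1, TRIB3 and GRPEL2 first. YARS1, which charges tyrosine to its tRNA, read 145 ± 1.6, 196 ± 5.4 and 64.3 ± 2.8 normalized CPM (SD, n = 2) at T0, with erlotinib and with osimertinib in PC9. In H1650 it read 131 ± 4.1, 235 ± 13 and 120.1 ± 3.2. The 12 libraries fall into 6 groups, so these correlations largely describe group means.

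Within the set, PSAT1 and PHGDH tracked the mean of the other 9 members most closely, with Pearson correlations of 0.953 and 0.893. MTHFD2 (0.732), MTHFD1L (0.655), PYCR1 (0.653) and ALDH1L2 (0.565) followed. SHMT2 (0.336), PSPH (0.228) and SHMT1 (0.087) were weakly related, and ALDH18A1 ran against the mean of the others (-0.46). With single members its correlations went from -0.92 for SHMT2 to 0.092 for MTHFD2.

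Some members share exon bases with other genes, and whether the counting used strand is not given in the sources used here. MTHFD2 shares 27.2% of its exon bases with SLC4A5 on the opposite strand, which had at most 13 reads in any library. PYCR1 shares 14.1% with MYADML2 on the same strand, which had at most 11 reads, and 15.6% with an antisense gene that had none. SHMT2 shares 8.83% with an antisense gene of at most 5 reads. SHMT1 shares 2.69% with SMCR8, which had 1153 to 2749 reads, and ALDH1L2 shares 1.70% with C12orf45, which had 149 to 393. Named pseudogenes of PSAT1, PSPH, SHMT1 and MTHFD2 had at most 4 reads in any library. How these overlaps affect the members' counts was not tested.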

How the data were processed

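RNA-seq of polyA RNA from 12 libraries was analysed from the gene counts deposited by the authors. Per the labels, the counts refer to GRCh38, and DESeq2 is named in the submitters' processing notes. According to the paper's methods and the table itself, reads were counted per gene with featureCounts in a DolphinNext pipeline. The aligner, the annotation release and the strand setting are not given in the sources used here. The deposited counts are whole numbers, and a gene length stands beside them. No column of another sample was present.

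Counts were tested with edgeR 4.0.16 in R 4.3.3. Genes were kept by filterByExpr over the 6 groups, leaving 19108 of 60591, with at least 99.9% of the reads of each library. Libraries were scaled by TMM factors (0.941 to 1.08). The 12 libraries entered 1 quasi-likelihood model of 6 group means (residual degrees of freedom 6, prior 20.7). The p-values were adjusted by Benjamini-Hochberg over all tested genes in each comparison. Standard errors are the log2 fold change divided by the square root of F, and intervals are at 95%. Levels are normalized CPM, and per kb they are divided by the length in the table. Likeness used log2 of CPM plus 0.5. The script was tested on simulated data.

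Depth was 17961765 to 26346187 reads per library. With 2 libraries a group, the spread behind the p-values was pooled over all groups and drawn towards that of other genes. It reflects only the spread between the libraries analysed here. Same-numbered libraries in the labels were not treated as pairs. Alternatives were the DESeq2 1.42.0 Wald test, RLE and upper quartile factors, other count filters, adjusted p under 0.01, each line on its own, the replicate number as a block and each library left out in turn.

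The 10 members, the gene lists and the motifs were chosen with earlier results of these data known. All 10 members are named in every comparison, and of each list at most the 2 highest and 2 lowest of the genes called in a comparison, with ATF4 and MTHFD1 named besides, after their values were seen. Some results for single genes of these lists are not reported here. The 5 genes most like the members were taken by Pearson correlation. Gene positions and overlaps are from GENCODE 29, and promoter windows from RefSeq on GRCh38.p14.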

Additional observations from a re-analysis of the deposited data

Results flagged for a closer look

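Differences between H1650 and PC9 in the same contrast, tested as an interaction in edgeR with Benjamini-Hochberg adjustment over all genes, were called for 21 pairs of a member and a contrast. All values are log2, H1650 minus PC9. For the change with erlotinib they were 1.82 for PSPH, 1.26 for SHMT1, 0.65 for PSAT1, 0.35 for ALDH18A1, -0.29 for MTHFD1L, -0.44 for PYCR1 and -1.28 for ALDH1L2. PSPH and SHMT1 fell in PC9 and rose in H1650.

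For the change with osimertinib the differences were 3.14 for PSAT1, 2.18 for PHGDH, 1.61 for MTHFD2, 1.46 for PSPH, 1.22 for ALDH1L2, 1.17 for SHMT1 and 0.99 for MTHFD1L. For the gap between osimertinib and erlotinib they were 2.50 for ALDH1L2, 2.49 for PSAT1, 2.16 for PHGDH, 1.56 for MTHFD2, 1.28 for MTHFD1L, 0.45 for PYCR1 and 0.43 for SHMT2. ALDH1L2 rests on 5 to 21 reads per library in the PC9 T0 and osimertinib groups. With 2 libraries a group, no single library was examined as an outlier.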

How the results depend on the processing

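Of 750 recomputed log2 fold changes under settings that keep all libraries, 725 kept their direction and their side of the threshold. The counts of members that moved by over 1.5 times were few. Members called lower in H1650 with erlotinib went from 2 to 1 at adjusted p under 0.01 and ranged from 0 to 2 with 1 library left out. Members called higher in the H1650 drug comparison ranged from 0 to 1, and members with a more negative erlotinib change in H1650 from 1 to 3, with 1 library left out. Members whose drug gap was wider in H1650 went from 0 to 1 with the replicate block and ranged from 0 to 1 with 1 library left out.

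With the replicate block, the PSPH gap between the lines was called (-0.36, adjusted p = 0.0076), as were SHMT2 in the osimertinib difference (0.25, adjusted p = 0.021) and ALDH18A1 at T0 (0.14, adjusted p = 0.0498). It changed no other call of a member, although it raised all genes called in the H1650 drug comparison from 1672 to 2670 and in the line dependence of the drug gap from 995 to 1722. Same-numbered libraries of different groups had correlated deviations of 0.0021 to 0.45 over 15 pairs of groups, 12 of them over 0.1. At adjusted p under 0.01, all genes called numbered 500 in that line dependence, 1930 (3163 at 0.05) in the PC9 drug comparison and 912 in the H1650 one.

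Signs turned for uncalled changes near 0. For MTHFD1L in PC9 with erlotinib the value was 0.056 with upper quartile factors and 0.014 under the stricter filter, which asks for 10 counts in all libraries. For PYCR1 in PC9 with osimertinib it was -0.060 without a filter and -0.036 with PC9 on its own. For ALDH18A1 there it was 0.022 with upper quartile factors. In the erlotinib line difference PHGDH was -0.060 and MTHFD2 -0.035 with upper quartile factors, and PHGDH -0.0078 with the 10-count filter. In the osimertinib line difference PYCR1 was -0.036 and -0.010 under these 2 settings. Leaving out 1 library turned the sign of 12 of 1200 values. Over the libraries left out, the values ranged from -0.092 to 0.014 for that MTHFD1L change, from -0.11 to 0.15 and -0.037 to 0.12 for PYCR1 with osimertinib in PC9 and H1650, and from -0.098 to 0.040 for SHMT1 between the drugs in PC9. In the line differences they ranged from -0.0064 to 0.067 for PHGDH and -0.028 to 0.13 for MTHFD2 with erlotinib and from -0.11 to 0.15 for PYCR1 with osimertinib. The MTHFD1L erlotinib line difference was also lost with DESeq2 (adjusted p = 0.074), RLE factors (0.052) and no filter (0.17). The cause of these changes was not tested. ALDH1L2 was not tested under the 10-count filter, which it does not pass.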
